A study of Mus musculus with 96 samples.

Results

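Thbs1, Ctgf, Cyr61, Ankrd1, Amotl2, Lats2, Axl and Ajuba are target genes of YAP, the co-activator at the end of the Hippo pathway, and their RNA was compared in mouse embryonic stem cells (ESCs) with altered RYBP, WDR5 or STAT3. These 8 genes were taken by name from the 37620 genes that each of 7 count tables lists, and all 8 were found in every table. Thbs1 was chosen by its measured level, which was higher in shRybp than in shEV ESCs, and the other genes as known YAP targets. The values of the 8 genes in that comparison, and in the comparison of shWdr5 with the same shEV libraries, are therefore a description without a test. In the other 5 tables each gene was tested within the whole table.

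YAP and its relative TAZ carry no DNA-binding domain of their own and reach promoters and enhancers through the TEAD factors. The Hippo kinases of the MST and LATS families phosphorylate YAP, which keeps it out of the nucleus, and several targets of YAP feed back on this chain. In the early mouse embryo, YAP and TEAD4 are active in the outer cells, where they drive Cdx2 and the trophectoderm, and they are held back in the inner cells from which ESCs are derived. RYBP is a subunit of non-canonical Polycomb repressive complex PRC1, whose catalytic core is RING1B. WDR5 is a subunit of the complexes that methylate lysine 4 of histone H3, and STAT3 transmits the LIF signal that maintains mouse ESCs.

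All ESCs were grown in medium with serum and LIF, and each group was measured in 2 libraries. The R7.15 line is floxed at Rybp. Rybp+/+ ESCs of this line were the untreated control, and Rybp-/- ESCs were obtained with 5 µM 4-hydroxytamoxifen (4-OHT) over 4 days, so the loss of Rybp and the 4-OHT treatment cannot be told apart. WT.RYBP and RYBP phase disruption are R7.15 ESCs with the genotype RYBPfl/fl Rosa26::CreERT2, both treated with 4-OHT, which carry either overexpressed WT RYBP or RYBP with a deletion of 21 amino acids (RYBP.21aa deletion). The R1 line gave shEV (empty vector), shRybp and shWdr5 ESCs, and also WT ESC and TF-AA mutation, a genotype that the labels do not explain further. J1 ESCs with a Tet on.RYBP construct received vehicle or doxycycline (DOX). The rTRS line carries a DOX-induced Rybp_Stat3 integration and was untreated (NTC) or labelled DOX. None of the labels says whether the 2 libraries of a group came from separate cultures, so p-values measure the spread between these libraries, which may be technical.

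The libraries held between 14512857 and 81049618 counts on genes, and the biological coefficient of variation between libraries of 1 group was 3.81% to 8.37%. Levels are given as CPM, counts scaled to a common library size with TMM within each table. Rybp fell from 110 to 24.9 CPM in Rybp-/- ESCs and from 86.0 to 36.2 CPM in shRybp ESCs, and it rose from 140 to 528 CPM in J1 ESCs with DOX. Wdr5 fell from 346 to 59.1 CPM in shWdr5 ESCs. The targeted gene was not the only 1 of Rybp, Wdr5 and Stat3 that changed. Of these 3, 2 were lower and 1 higher in Rybp-/- and in shRybp libraries, with medians of -0.14 and -0.49. In shWdr5 libraries and in the rTRS libraries labelled DOX 1 was lower and 1 higher. Rybp was at 751 CPM in WT.RYBP and lower, at 644 CPM, in RYBP phase disruption libraries (-0.22 on the log2 scale, adjusted p = 6.8e-05 from edgeR), where Wdr5 and Stat3 were also lower (-0.24 and -0.27), so the deletion and a lower level of Rybp RNA cannot be told apart there. In rTRS ESCs Rybp was at 111 CPM in NTC and 101 CPM in the libraries labelled DOX (adjusted p = 0.076 from edgeR), and Stat3 at 166 and 190 CPM (adjusted p = 0.026). The gene counts thus show no induction of Rybp in the rTRS libraries labelled DOX, and whether they include reads of the integrated copy is not known. Summed over 11 ESC markers, Pou5f1, Nanog and Sox2 among them, the level was 4266 to 10239 CPM in the 28 libraries, with none of the 11 at 0.

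The promoter table used here, made from RefSeq (assembly GRCm38.p6), gave the 250 bases before and 50 bases after a start for 6 of the 8 genes, and each also matched exactly 1 place of mm9, the build of the deposited files. The promoters of Thbs1 and Ctgf are not shown. The letters GGAATG, or CATTCC on the other strand, are the core that TEAD factors recognise. At least 1 match was found in a promoter of each of the 6 genes, while 14.7% of all 32851 promoters of the same length held one. Shown here are 4 of them, of a secreted protein, the nuclear cofactor and a pair of genes that act on the pathway, whose RNA changed in different comparisons. Capitals mark the TEAD letters.
Cyr61, mm9 chr3:145312900-145313199, minus strand: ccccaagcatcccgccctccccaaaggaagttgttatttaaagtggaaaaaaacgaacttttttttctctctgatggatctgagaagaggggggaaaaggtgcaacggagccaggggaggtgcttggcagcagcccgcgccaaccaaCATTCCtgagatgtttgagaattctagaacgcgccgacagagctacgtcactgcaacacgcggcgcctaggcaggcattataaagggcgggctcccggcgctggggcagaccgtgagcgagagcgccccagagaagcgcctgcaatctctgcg
Ankrd1, mm9 chr19:36194285-36194584, minus strand: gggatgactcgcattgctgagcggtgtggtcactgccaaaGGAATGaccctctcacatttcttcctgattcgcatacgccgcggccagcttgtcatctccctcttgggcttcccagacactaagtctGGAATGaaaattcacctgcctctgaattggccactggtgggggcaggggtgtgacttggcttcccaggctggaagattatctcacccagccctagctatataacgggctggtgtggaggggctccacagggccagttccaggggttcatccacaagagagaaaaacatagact
Amotl2, mm9 chr9:102619884-102620183, plus strand: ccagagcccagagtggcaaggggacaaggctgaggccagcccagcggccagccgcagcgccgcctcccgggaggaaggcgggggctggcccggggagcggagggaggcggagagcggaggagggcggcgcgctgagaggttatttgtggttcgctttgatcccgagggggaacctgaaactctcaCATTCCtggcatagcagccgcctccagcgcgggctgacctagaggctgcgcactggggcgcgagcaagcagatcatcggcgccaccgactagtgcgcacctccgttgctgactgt
Ajuba, mm9 chr14:55196449-55196748, minus strand: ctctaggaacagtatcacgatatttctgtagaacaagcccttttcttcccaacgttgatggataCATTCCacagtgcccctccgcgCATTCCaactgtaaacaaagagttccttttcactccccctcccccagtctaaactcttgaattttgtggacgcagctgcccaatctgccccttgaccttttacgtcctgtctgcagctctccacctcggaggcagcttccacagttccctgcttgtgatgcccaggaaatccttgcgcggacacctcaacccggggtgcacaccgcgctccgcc
The match lay 103 bases upstream of the start in Cyr61 and 65 bases upstream in Amotl2. Ankrd1 held 2 matches, 210 and 123 bases upstream, and Ajuba 2, at 186 and 164 bases. Axl held 1 match 233 bases upstream, and Lats2 held 1 just downstream of its outermost start in RefSeq and none at a second start. The letters TTCNNNGAA, the core that STAT factors recognise, read the same on both strands and were found in none of these promoters but in 8.3% of all, so no match of either kind overlapped the other. A match describes the letters only and is not a bound site.

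**Figure D1:**
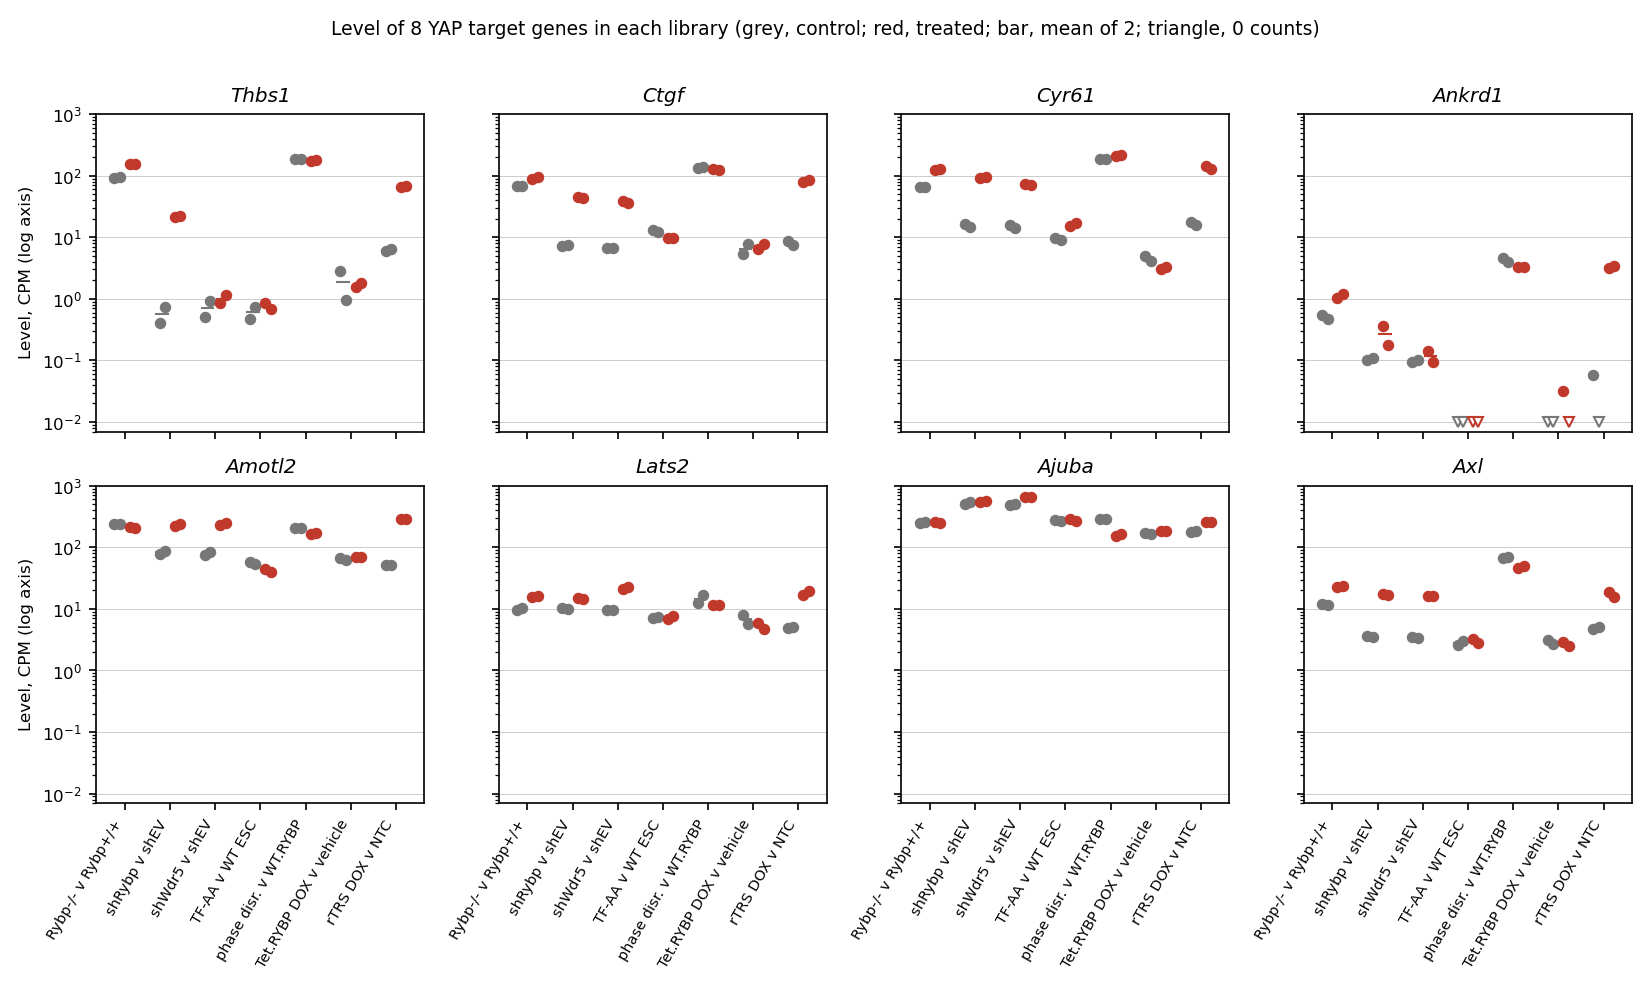
Level of each of the 8 YAP target genes in every library, in CPM on a log axis, by comparison; grey points are control and red points treated libraries, the bar is their mean and a triangle marks a library with 0 counts. Thbs1 spans 0.405 to 187 CPM, and in the rTRS comparison every red point of every gene lies above the grey ones.

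Thbs1 encodes thrombospondin 1, a secreted matrix glycoprotein that restrains angiogenesis and activates latent TGF-beta. In R7.15 ESCs it was at 92.0 and 94.9 CPM in Rybp+/+ and at 158 and 157 CPM in Rybp-/- libraries. It thus rose by 0.75 ± 0.04 (log2 fold change ± standard error, 95% interval 0.68 to 0.83, adjusted p = 1.5e-17 from the quasi-likelihood test of edgeR, here and below), and the groups did not overlap. In R1 ESCs it was nearly silent in the shEV libraries, at 0.405 and 0.734 CPM, and was at 21.4 and 22.6 CPM in the shRybp libraries, a log2 difference of 5.28. This is the difference for which the gene was picked. In the shWdr5 table the same shEV libraries, at about 0.51 of the depth, gave 0.514 and 0.911 CPM, and the shWdr5 libraries gave 0.841 and 1.15 CPM. There the groups overlapped.

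In rTRS ESCs Thbs1 was at 5.97 and 6.50 CPM in NTC and at 65.4 and 68.7 CPM in the libraries labelled DOX, and rose by 3.43 ± 0.10 (3.21 to 3.64, adjusted p = 6.9e-11). No difference was detected in 3 comparisons. Thbs1 was at 0.478 and 0.741 CPM in WT ESC and at 0.845 and 0.694 CPM with the TF-AA mutation, and the interval of the log2 difference, -0.70 to 1.38, was wide at these low counts (adjusted p = 0.65). It was high in both R7.15 groups with added RYBP, at 187 and 185 CPM with WT.RYBP and 176 and 180 CPM with RYBP phase disruption, where the difference was -0.06 (-0.16 to 0.04, adjusted p = 0.37). In J1 ESCs the vehicle libraries differed from each other, at 2.80 and 0.956 CPM, and enclosed the DOX libraries at 1.54 and 1.84 CPM (-1.02 to 0.70, adjusted p = 0.90).

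Thbs1 differed more widely between lines than within most tables. Ordered by mean CPM, across tables that were normalized separately, the R7.15 groups came first, with WT.RYBP at 186, RYBP phase disruption at 178, Rybp-/- at 157 and Rybp+/+ at 93.4 CPM. The rTRS libraries labelled DOX followed at 67.1, shRybp at 22.0 and rTRS NTC at 6.23 CPM. The remaining 7 group means lay between 0.569 and 1.88 CPM, and the libraries of neighbours in that order overlapped, except for J1 ESCs with DOX and shWdr5 ESCs. R7.15 also differed from the other lines in some fibroblast or feeder markers. The collagen Col3a1 had 312 to 870 counts in each R7.15 library, and in R1 and J1 libraries Col3a1, the proteoglycans Dcn and Lum, Postn and S100a4 had 0 to 4 counts each. In rTRS libraries these 5 genes had 0 to 12 counts. The sum over all 12 markers did not set Rybp+/+ ESCs apart. It was 1313 and 1344 CPM there, against 1361 and 1426 CPM with shEV and 1403 and 1454 CPM in WT ESC. In rTRS NTC it was 1532 and 1631 CPM and in J1 vehicle libraries 1186 and 1203 CPM. Of R7.15, the WT.RYBP libraries had the higher sum, 3688 and 3715 CPM. Fewer cells of a type and less RNA per cell cannot be told apart in bulk libraries.

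Ctgf and Cyr61 encode matricellular proteins of the CCN family and are the targets most often read as a measure of YAP activity. Ctgf was at 68.3 and 69.3 CPM in Rybp+/+ and 88.7 and 94.2 CPM in Rybp-/- libraries, a rise of 0.41 ± 0.04 (adjusted p = 1.1e-09). Cyr61 was at 65.9 and 66.1 CPM in Rybp+/+ and 126 and 127 CPM in Rybp-/- libraries and rose by 0.94 ± 0.04 (adjusted p = 1.9e-19). Neither gene had overlapping groups there. In R1 ESCs Ctgf was at 7.26 and 7.39 CPM with shEV and 44.4 and 43.6 CPM with shRybp, a log2 difference of 2.59, and in the shWdr5 table it was at 6.78 and 6.68 CPM with shEV and 39.0 and 36.5 CPM with shWdr5. Cyr61 was at 16.7 and 15.0 CPM with shEV and 91.3 and 95.8 CPM with shRybp, and in the shWdr5 table at 15.9 and 14.0 CPM with shEV and 72.1 and 70.8 CPM with shWdr5. So both CCN genes were higher in shWdr5 libraries, with log2 differences of 2.49 and 2.25, where Thbs1 differed by 0.49 with overlapping groups. The 2 knockdowns share the shEV libraries.

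In rTRS ESCs Ctgf was at 8.55 and 7.43 CPM in NTC and 80.4 and 85.5 CPM in the libraries labelled DOX, and rose by 3.38 ± 0.10 (adjusted p = 7e-11). Cyr61 was at 17.6 and 15.7 CPM in NTC and 143 and 127 CPM in the libraries labelled DOX, a rise of 3.02 ± 0.09 (adjusted p = 9.7e-11). Both CCN genes and Thbs1 thus rose by more than 3 on the log2 scale.

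Of the CCN genes Cyr61 passed the test with the TF-AA mutation and Ctgf did not in the main fit, though Ctgf passed with a replicate block. Cyr61 was at 9.70 and 8.94 CPM in WT ESC and 15.5 and 17.2 CPM in TF-AA libraries and rose by 0.81 ± 0.14 (0.52 to 1.10, adjusted p = 9.6e-05), while Ctgf was at 13.2 and 12.3 CPM in WT ESC and 9.79 and 9.93 CPM in TF-AA libraries, a difference of -0.37 ± 0.14 that missed the threshold (-0.67 to -0.07, adjusted p = 0.053). Between WT.RYBP and RYBP phase disruption Cyr61 rose slightly, from 185 and 187 to 206 and 215 CPM (0.18 ± 0.05, adjusted p = 0.0045), a call that was lost when either WT.RYBP library was left out (adjusted p = 0.094 and 0.058). Ctgf was at 133 and 138 CPM in WT.RYBP and 129 and 123 CPM in phase disruption libraries (adjusted p = 0.14). In J1 ESCs Cyr61 was at 5.04 and 4.06 CPM with vehicle and 3.01 and 3.33 CPM with DOX, a difference of -0.52 (-1.03 to -0.01, adjusted p = 0.25), and Ctgf was at 5.32 and 7.71 CPM and at 6.53 and 7.86 CPM (adjusted p = 0.77).

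Ankrd1 encodes an ankyrin repeat protein that acts as a nuclear cofactor in muscle and is induced by YAP in many cell types. It had few counts in most libraries. In R7.15 ESCs it had 43 and 38 counts in Rybp+/+ and 78 and 93 counts in Rybp-/- libraries, and rose by 1.13 ± 0.35 (0.42 to 1.84, adjusted p = 0.0084). Without the second Rybp-/- library the adjusted p was 0.083. In rTRS NTC it had 3 and 0 counts, and in the libraries labelled DOX 166 and 171 counts. The ratio of the summed counts, scaled by library size, was 114, with a 95% interval of 38.8 to 558 that covers counting error only. It passed the filter on low counts there only through the libraries labelled DOX, so its test is not used as support. The 2 rTRS groups did not overlap, and the size of the difference rests on 3 control counts. In R1 ESCs it had 4 and 4 counts with shEV and 20 and 8 with shRybp, and beside shWdr5, with 3 and 2 counts, shEV had 2 and 2, and it did not pass the filter on low counts in either table. It had 0 counts in all 4 WT ESC and TF-AA libraries, which allows up to 0.160 CPM in any of them, and 1 count in the 4 J1 libraries together. Between WT.RYBP, with 74 and 64 counts, and phase disruption, with 49 and 49 counts, the log2 difference was -0.38 ± 0.25 (adjusted p = 0.24).

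**Figure D2:**
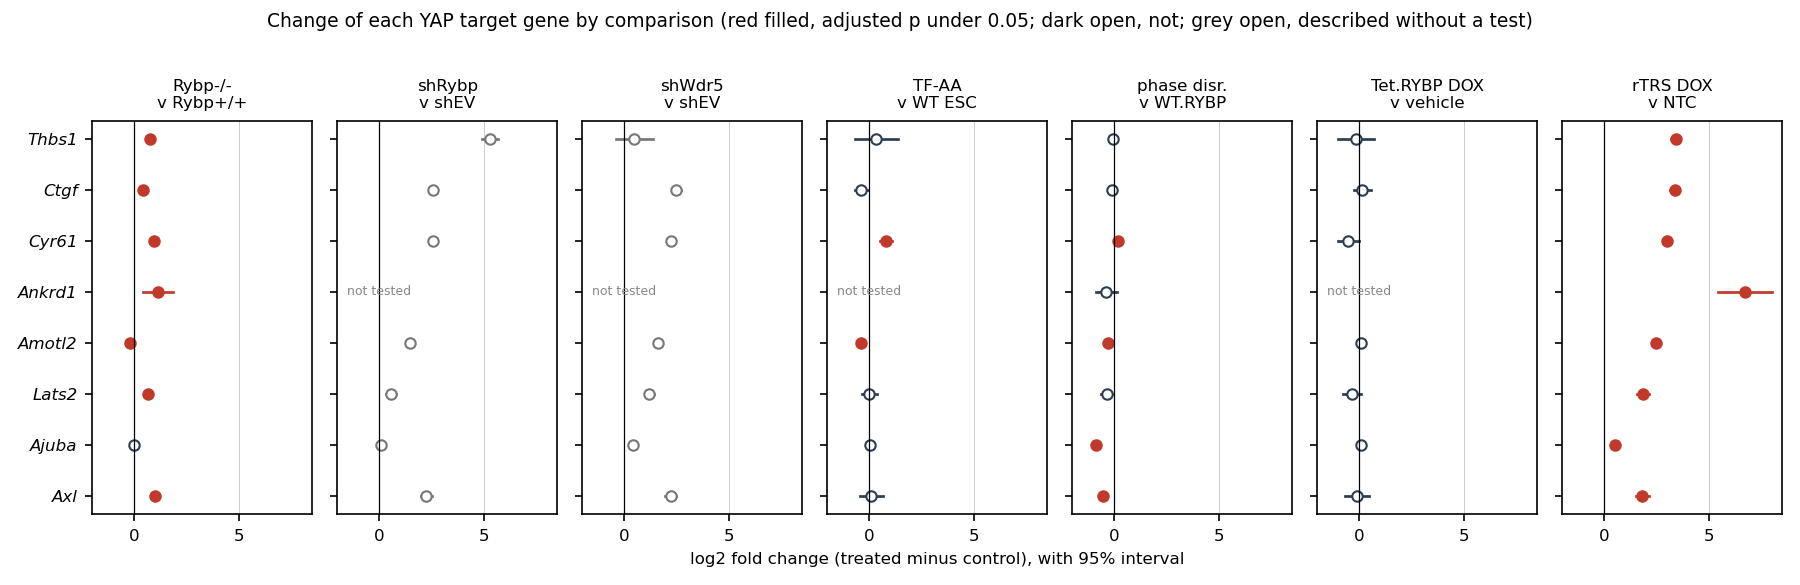
Log2 fold change of each gene in each of the 7 comparisons, treated minus control, with its 95% interval as a line; filled red points have an adjusted p under 0.05, open dark points do not, and open grey points in both comparisons with shEV are described without a test. All 8 genes lie to the right of 0 in the rTRS comparison, where the point of Ankrd1 rests on 3 control counts and on a filter passed through the libraries labelled DOX, and Ajuba lies farthest to the left with RYBP phase disruption, at -0.86.

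Amotl2, Lats2 and Ajuba act on the pathway itself. Amotl2 belongs to the angiomotins, which bind YAP and hold it at cell junctions, and Lats2 is 1 of the kinases that phosphorylate YAP. Ajuba is a LIM domain protein that binds LATS kinases and restrains them. Amotl2 was the only 1 of the 8 genes that fell in Rybp-/- ESCs, from 238 and 242 CPM to 217 and 204 CPM (-0.19 ± 0.03, -0.26 to -0.12, adjusted p = 3.1e-05). In R1 ESCs it was at 78.2 and 87.9 CPM with shEV and 222 and 243 CPM with shRybp, a log2 difference of 1.49, and in the shWdr5 table at 74.0 and 82.8 CPM with shEV and 233 and 244 CPM with shWdr5. It rose in rTRS ESCs, from 51.8 and 52.6 CPM in NTC to 288 and 285 CPM in the libraries labelled DOX (2.46 ± 0.06, adjusted p = 3.9e-11). The groups did not overlap in any of these comparisons. Amotl2 also fell with the TF-AA mutation, from 56.8 and 54.0 to 44.4 and 39.6 CPM (-0.40 ± 0.09, adjusted p = 0.0021), a call lost without the second TF-AA library (adjusted p = 0.097). It fell from 208 and 204 CPM in WT.RYBP to 163 and 169 CPM in phase disruption libraries (-0.31 ± 0.05, adjusted p = 7.2e-06). In J1 ESCs the difference was 0.11 (adjusted p = 0.47).

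Lats2 was expressed at a low level throughout. It rose in Rybp-/- ESCs, from 9.57 and 10.4 to 15.6 and 16.3 CPM (0.67 ± 0.09, adjusted p = 6.8e-08), and in rTRS ESCs, from 4.91 and 5.12 CPM in NTC to 17.0 and 19.3 CPM in the libraries labelled DOX (1.85 ± 0.13, adjusted p = 2.2e-07). With shEV it was at 10.2 and 9.87 CPM and with shRybp at 15.2 and 14.3 CPM, and in the shWdr5 table it was at 9.54 and 9.57 CPM with shEV and 21.3 and 22.8 CPM with shWdr5. Lats2 thus had the larger difference in shWdr5 libraries, which was not tested. Thbs1 had it in shRybp libraries, but it was picked for that difference, so the 2 genes cannot be contrasted here. With RYBP phase disruption it was at 11.5 and 11.7 CPM against 12.6 and 16.7 CPM in WT.RYBP (-0.34 ± 0.14, adjusted p = 0.064), and the difference rests on the spread of the WT.RYBP pair, since it was -0.53 (adjusted p = 0.0093) without the first and -0.13 (adjusted p = 0.65) without the second of them. No difference was detected with the TF-AA mutation (adjusted p = 0.97) or in J1 ESCs (adjusted p = 0.38).

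Ajuba had the highest level of the 8 genes per length in 12 of the 14 groups, and it moved least in most comparisons. It was at 250 and 262 CPM in Rybp+/+ and 262 and 253 CPM in Rybp-/- libraries, with overlapping groups (0.01 ± 0.03, adjusted p = 0.87). With shEV it was at 508 and 545 CPM and with shRybp at 547 and 563 CPM, while in the shWdr5 table it was at 479 and 514 CPM with shEV and 664 and 654 CPM with shWdr5. In rTRS ESCs it rose from 179 and 183 to 260 and 260 CPM in the libraries labelled DOX, by 0.52 ± 0.06 (adjusted p = 1.3e-05). Its largest change was with RYBP phase disruption, where it fell from 284 and 291 CPM to 154 and 164 CPM (-0.86 ± 0.05, adjusted p = 7.9e-16). In that comparison Thbs1 and Ctgf did not pass the test. No difference of Ajuba was detected with the TF-AA mutation (0.02, adjusted p = 0.85) or in J1 ESCs (0.11, adjusted p = 0.31).

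Axl encodes a receptor tyrosine kinase that binds GAS6. It was at 12.2 and 11.6 CPM in Rybp+/+ and 22.9 and 24.0 CPM in Rybp-/- libraries and rose by 0.98 ± 0.08 (adjusted p = 1.2e-12). With shEV it was at 3.64 and 3.53 CPM and with shRybp at 17.4 and 16.8 CPM, and in the shWdr5 table at 3.55 and 3.34 CPM with shEV and 15.9 and 16.2 CPM with shWdr5. These are log2 differences of 2.25 and 2.22. In rTRS ESCs it rose from 4.72 and 5.1 to 18.9 and 15.9 CPM (1.83 ± 0.14, adjusted p = 4.1e-07). It fell with RYBP phase disruption, from 67.8 and 68.5 to 45.6 and 49.6 CPM (-0.52 ± 0.07, adjusted p = 6.3e-07). It stayed between 2.53 and 3.23 CPM in the WT ESC, TF-AA and J1 libraries, where no difference was detected (adjusted p = 0.80 and 0.91).

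Counted over the 8 genes, 6 rose and 1 fell in Rybp-/- ESCs, where 22.8% of the 16955 genes tested rose and 22.7% fell, and the median log2 fold change was 0.71 against 0.00 over all genes. With upper-quartile factors 4883 genes rose and 2980 fell there, in place of 3873 and 3847. In rTRS ESCs, where 23% of 16291 genes rose and 20.4% fell, 7 of 7 rose when Ankrd1 is set aside, which passed the filter on low counts only through the libraries labelled DOX. The middle value of the 7 was the 2.46 of Amotl2. With the TF-AA mutation 1 of 7 tested rose and 1 fell, near the 14.4% that rose and 16.1% that fell among all 14456 genes, with 2847 rises and 1717 falls under upper-quartile factors in place of 2085 and 2327. In phase disruption libraries 1 of 8 rose and 3 fell, where 16.1% of 14575 genes rose and 17% fell, with a median of -0.32. In J1 ESCs none of the 7 tested passed, where 3.63% of 14937 genes rose and 2.39% fell. DESeq2 also called 0 there, and without adjustment edgeR placed 1 of the 7, Cyr61, under 0.05. The rise of Rybp itself to 528 CPM thus went with no detected change of these genes. In both comparisons with shEV the medians were 2.25 with shRybp and 1.61 with shWdr5, and the shares of all genes that rose and fell were 26.8% and 26% of 16538 with shRybp and 31.5% and 31.5% of 15143 with shWdr5. Upper-quartile factors gave 4954 rises and 3621 falls with shRybp, in place of 4428 and 4293. With shWdr5 they gave 4309 and 5375, in place of 4777 and 4770.

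Markers of other cell types moved in the same comparisons. Their counts stand against the shares of all genes that rose and fell. These were 22.8% and 22.7% in Rybp-/- ESCs, 26.8% and 26% with shRybp, and 31.5% and 31.5% with shWdr5. They were 14.4% and 16.1% with the TF-AA mutation and 16.1% and 17% with RYBP phase disruption. In J1 ESCs they were 3.63% and 2.39%, and in rTRS ESCs 23% and 20.4%. In Rybp-/- ESCs 11 of 12 fibroblast or feeder markers rose and none fell, with a median of 1.03, and their summed level went from 1313 to 1344 CPM in Rybp+/+ to 1584 to 1588 CPM in Rybp-/- libraries. Col3a1 rose from a mean of 4.55 to 10.8 CPM and Col1a2 from 19.9 to 41.5 CPM there, a small part of that sum. Of the same 12 markers 6 fell with RYBP phase disruption, and the sum went from 3688 to 3715 CPM down to 2679 to 2798 CPM. With shRybp 4 of 7 tested were higher and 1 lower, and with shWdr5 2 of 7 were higher and 3 lower. The TF-AA mutation gave 4 rises and 2 falls of 7, and J1 ESCs 1 and 1 of 6. Whether fibroblasts or feeder cells were present in the R7.15 libraries, and took part in these results, was not tested. In rTRS ESCs the fibroblast or feeder sum was 1532 to 1631 CPM in NTC and 1449 to 1469 CPM in the libraries labelled DOX, almost all of it Fn1 and Vim, with 1 of 7 tested markers higher and 3 lower. There 7 of 8 tested trophectoderm markers rose and none fell, and their sum went from 260 to 269 CPM in NTC to 1033 to 1111 CPM. The keratins Krt8 and Krt18 rose from 78.1 to 511 CPM and from 51.7 to 360 CPM, and the trophectoderm factors Gata3 and Cdx2 rose by 4.07 and 3.83, while Elf5 and Plac1 had 0 to 8 counts in each library. Of 11 ESC markers 9 fell in the libraries labelled DOX and none rose, with a median of -0.78, and Zfp42 fell from 889 to 277 CPM. With shWdr5 8 of the 11 were lower and 2 higher, with a median of -0.41, while 7 rose and 3 fell in Rybp-/- ESCs, with a median of 0.15, and 5 rose and 5 fell with shRybp. The part of a changed cell state in the rise of the YAP target genes was not tested. With shRybp 7 of 9 tested trophectoderm markers were higher and 1 lower, Krt18 at 8.17 and 67.0 CPM among them, and with shWdr5 5 of 8 were higher and 1 lower. Of these markers 8 of 9 rose in Rybp-/- ESCs and none fell. With RYBP phase disruption 6 of 8 rose and none fell, and their sum went from 396 to 404 CPM in WT.RYBP to 523 to 549 CPM. With the TF-AA mutation 4 of 5 rose, and in J1 ESCs 1 of 6. Of 10 primitive endoderm markers 6 rose in Rybp-/- ESCs and 8 with shRybp, where 1 fell, and 6 with shWdr5, where 2 fell. With the TF-AA mutation 5 of 8 tested rose and none fell, and with RYBP phase disruption 3 of 9 rose. In rTRS ESCs 3 of 9 rose and 2 fell, near the 23% and 20.4% of all genes. Of 8 mesoderm markers 5 rose in rTRS ESCs. Eomes and Hand1 stand in both the mesoderm and the trophectoderm list.

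**Figure D3:**
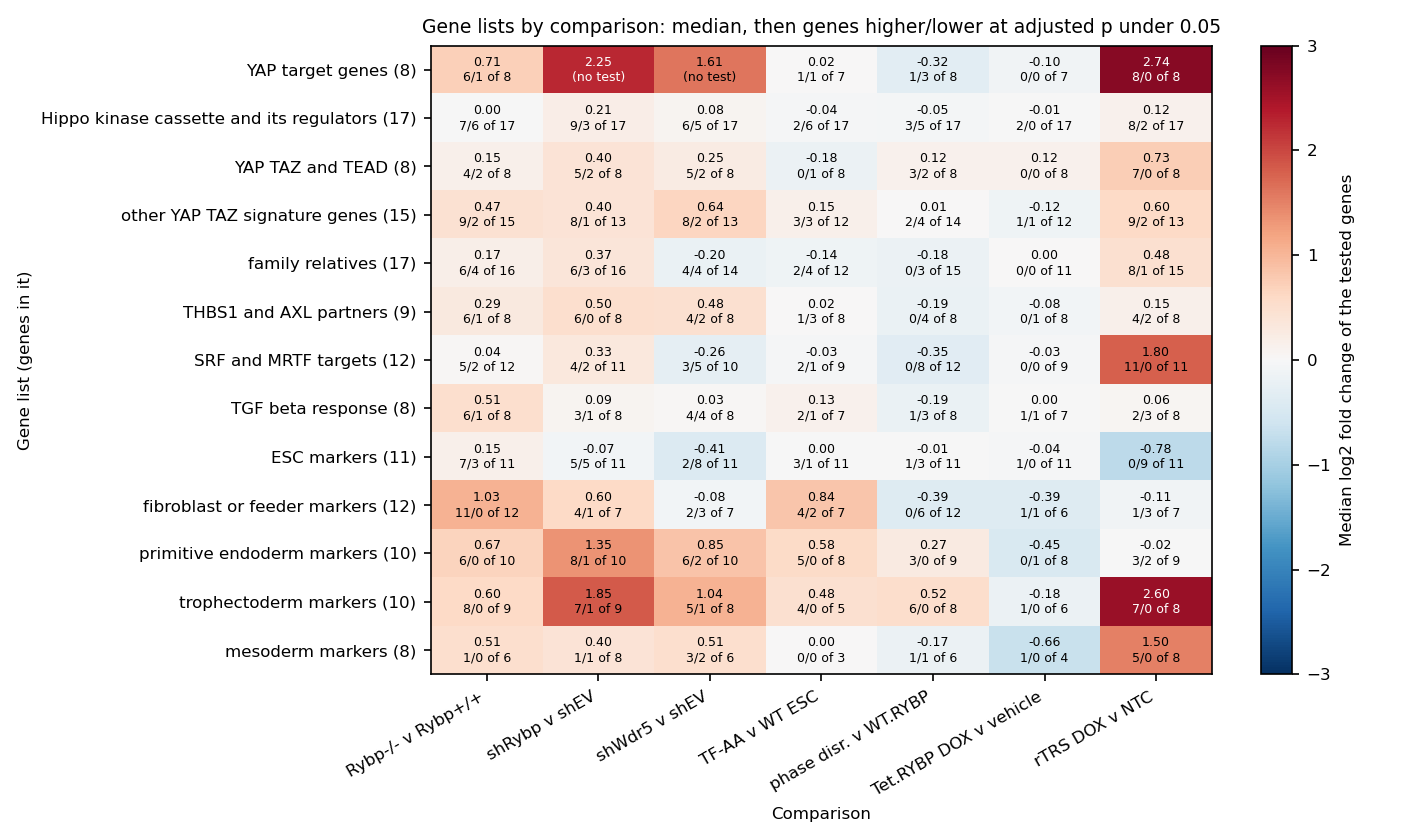
Median log2 fold change of each gene list (colour and first number) in each comparison, with the number of genes that were higher and lower at an adjusted p under 0.05 out of those tested below it; list sizes stand in brackets. The 8 YAP target genes and the SRF and MRTF targets share a high median in the rTRS comparison, 2.74 (with Ankrd1) and 1.80, as do the trophectoderm markers (2.6) and mesoderm markers (1.5), and the YAP target genes have no test against shEV. The trophectoderm and mesoderm lists share Eomes and Hand1.

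The pathway upstream of these genes was read from lists, whose counts stand against the shares of all genes given above. Of 17 genes of the Hippo kinase cassette and its regulators, 7 rose and 6 fell in Rybp-/- ESCs, with a median of 0.00 (22.8% and 22.7% of all genes). Taok3, a kinase that acts on the MST kinases, fell from 27.9 to 16.2 CPM (-0.79, adjusted p = 1.9e-11), while Frmd6, an upstream activator, rose from 28.3 to 46.1 CPM. In rTRS ESCs 8 rose and 2 fell, with a median of 0.12 (23% and 20.4% of all genes). The angiomotins Amot and Amotl1 rose there by 2.16 and 1.46, and Ptpn14, a phosphatase that binds YAP, rose from 55.2 to 149 CPM. With shRybp 9 of the 17 rose and 3 fell (26.8% and 26% of all genes). With shWdr5 6 rose and 5 fell, near the 31.5% of all genes in each direction. Ptpn14 rose most in both, from 123 to 433 CPM and from 116 to 746 CPM. With the TF-AA mutation 2 rose and 6 fell (14.4% and 16.1% of all genes), among them Nf2, the tumour suppressor that activates the pathway, from 257 to 140 CPM (-0.88, adjusted p = 6.7e-09). With RYBP phase disruption 3 rose and 5 fell (16.1% and 17% of all genes), and in J1 ESCs 2 rose, Wwc1 by 0.40 and Map4k4 by 0.26.

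Of the 8 genes for YAP, TAZ, the TEAD factors and their Vgll partners, 7 rose in rTRS ESCs and none fell (23% and 20.4% of all genes). Yap1 itself moved little, from 177 and 186 to 214 and 216 CPM (0.25 ± 0.06, adjusted p = 0.0055), and Wwtr1, which encodes TAZ, went from 42.6 to 77.5 CPM. Tead3 rose from 4.39 to 23.1 CPM and Vgll3, a TEAD cofactor, from 1.94 to 20.7 CPM. In Rybp-/- ESCs Yap1 fell slightly, from 219 and 219 to 202 and 199 CPM (-0.13 ± 0.03, adjusted p = 0.002), although 6 of its 8 targets named here rose. In that comparison 4 of the 8 genes rose and 2 fell (22.8% and 22.7% of all genes). With shRybp 5 rose and 2 fell, among them Tead2, which went from 156 to 89.1 CPM. The counts with shWdr5 were also 5 and 2. Of all genes, 26.8% rose and 26% fell with shRybp, and 31.5% rose and 31.5% fell with shWdr5. With the TF-AA mutation Yap1 was the 1 gene of the list that passed the threshold, from 209 to 171 CPM (-0.28, adjusted p = 0.0065). The median of the list was -0.18, and its sum went from 453 and 454 CPM in WT ESC to 384 and 393 CPM. With RYBP phase disruption 3 rose and 2 fell (16.1% and 17% of all genes), and in J1 ESCs none passed.

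Other genes of the YAP and TAZ signature were read as a list of 15. Of these, 9 rose and 2 fell in Rybp-/- ESCs (22.8% and 22.7% of all genes). Igfbp3, an IGF-binding protein, rose there from 27.9 to 60.5 CPM and Myof from 8.68 to 17.0 CPM. In rTRS ESCs 9 of 13 tested rose and 2 fell (23% and 20.4% of all genes). Nt5e, a cell surface nucleotidase, rose there from 1.78 to 36.0 CPM and Igfbp3 from 23.1 to 171 CPM. With shRybp 8 of 13 rose and 1 fell (26.8% and 26% of all genes), and with shWdr5 8 of 13 rose and 2 fell (31.5% and 31.5%). The other 3 comparisons gave 3 rises and 3 falls of 12 with the TF-AA mutation (14.4% and 16.1% of all genes), 2 and 4 of 14 with RYBP phase disruption (16.1% and 17%), and 1 and 1 of 12 in J1 ESCs (3.63% and 2.39%), so the 2 rises with RYBP phase disruption are near the share of all genes.

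Relatives of the 8 genes and the partners of THBS1 and AXL were read next to them. Amot, Amotl1 and Lats1 stand in both the Hippo list and that of the family relatives. Of 16 tested family relatives, 6 rose and 4 fell in Rybp-/- ESCs (22.8% and 22.7% of all genes). The thrombospondin Thbs2 rose there from 3.85 to 8.64 CPM, and the CCN genes Wisp1 and Nov rose by 1.72 and 1.62. In rTRS ESCs 8 of 15 rose and 1 fell (23% and 20.4% of all genes). Of the relatives 3 of 15 fell with RYBP phase disruption, near the 17% of all genes, and none rose. Among the partners, Gas6, the ligand of AXL, rose with Axl in Rybp-/- ESCs, from 15.1 to 28.0 CPM (0.90, adjusted p = 1.7e-12), and in rTRS ESCs from 25.9 and 23.4 to 31.8 and 31.2 CPM (0.36, adjusted p = 0.008). Lrp1, a receptor that takes up thrombospondin 1, rose with shRybp from 173 to 395 CPM. Of the 8 tested partners 6 rose and 1 fell in Rybp-/- ESCs (22.8% and 22.7% of all genes) and 4 fell with RYBP phase disruption (17%).

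The targets of SRF and its cofactor MRTF, a programme that responds to actin and shares several genes with that of YAP, were read as a list of 12. In rTRS ESCs 11 of 11 tested rose (23% of all genes). Tpm1, a tropomyosin, was at 80.1 CPM in NTC and 770 CPM in the libraries labelled DOX, and Tagln rose from 6.08 to 118 CPM. Of the 12 targets 8 fell with RYBP phase disruption and none rose (17% and 16.1% of all genes), with a median of -0.35. Tagln fell there from 180 to 127 CPM. In Rybp-/- ESCs 5 of 12 rose and 2 fell (22.8% and 22.7% of all genes), Acta2 from 11.9 to 27.3 CPM among the rises. With shRybp 4 of 11 rose and 2 fell (26.8% and 26% of all genes). With shWdr5 3 of 10 rose, near the 31.5% of all genes, and 5 fell (31.5%), with a median of -0.26. With the TF-AA mutation 2 of 9 rose and 1 fell, near the 14.4% and 16.1% of all genes, and in J1 ESCs none of 9 passed. Of 8 TGF-beta response genes 6 rose and 1 fell in Rybp-/- ESCs (22.8% and 22.7% of all genes), 2 and 3 in rTRS ESCs (23% and 20.4%), 3 and 1 with shRybp (26.8% and 26%), 4 and 4 with shWdr5 (31.5% and 31.5%) and 1 and 3 with RYBP phase disruption (16.1% and 17%). Of the 7 tested with the TF-AA mutation 2 rose and 1 fell (14.4% and 16.1%), and in J1 ESCs 1 rose and 1 fell (3.63% and 2.39%).

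Over 24 libraries, the shWdr5 table left out, the genes whose log2 level followed Thbs1 most closely within each table were Krt19 (Pearson r = 0.98), Col7a1 (0.97), Krt18 (0.96), Tmcc3 (0.96) and Anxa3 (0.96), of 10669 ranked. These values describe the pattern and rest in part on the shRybp and shEV libraries, whose difference chose Thbs1, and the libraries of a table share their line and scaling. Among the 8 genes, Thbs1 followed Axl (0.94) and Cyr61 (0.92) most closely and Ajuba least (0.36), and Ctgf followed Amotl2 (0.97).

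Peaks at the 8 genes were read from 14 lists that the authors called with MACS2. For Rybp+/+ and Rybp-/- R7.15 ESCs these were H3K4me3 and H3K27ac, marks of active promoters and, for the latter, enhancers, and WDR5 and STAT3. RING1B was mapped in R1 ESCs with shEV or shStat3, and RING1B and STAT3 in ESCs of R1 origin with the DOX-induced Rybp_Stat3 integration (Tet.Rybp.Stat3), without and with DOX. Of these lists 10 merge 2 samples and 4 rest on 1 sample, so no test between them was made. A peak was counted at a promoter when it touched 2.5 kb either side of an annotated start.

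**Figure D4:**
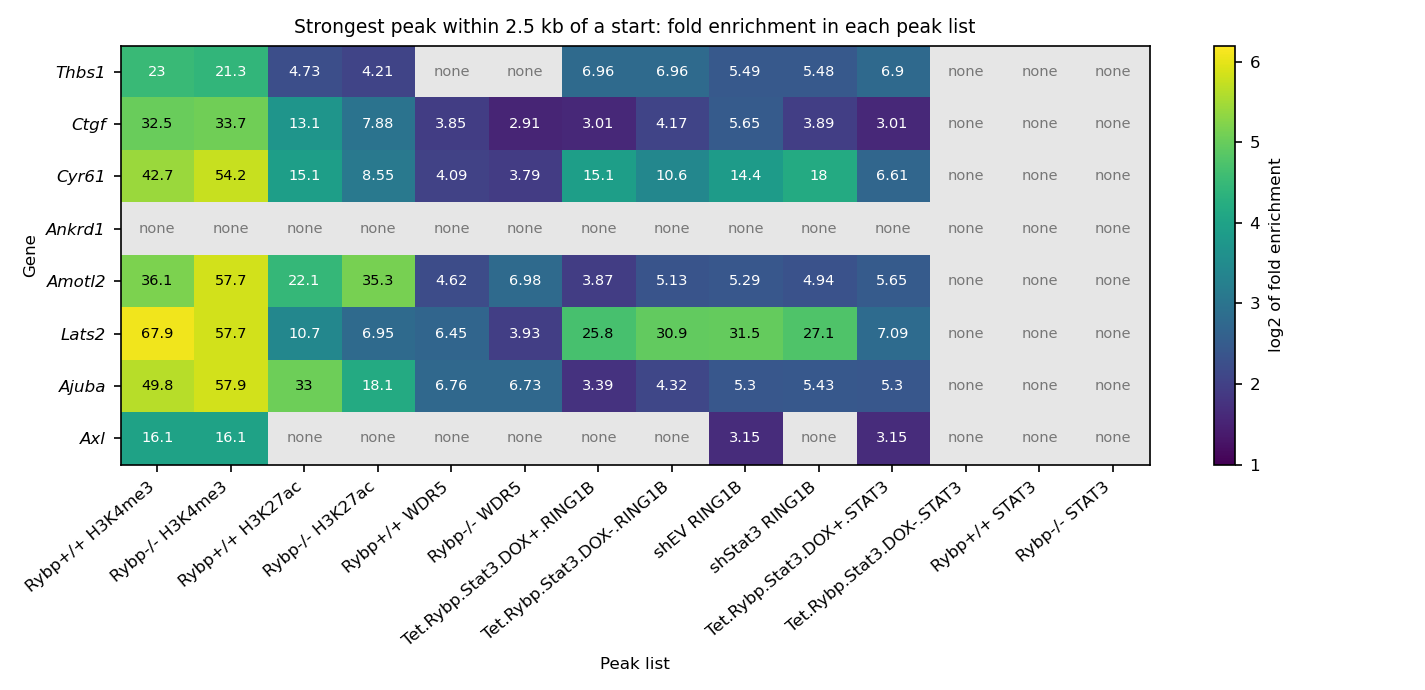
Fold enrichment over background of the strongest peak within 2.5 kb of a start of each gene (rows) in each of the 14 peak lists (columns), as a number and as colour on a log2 scale; grey cells hold no peak, and the strongest peak of a gene can be a different one in each list. Ankrd1 has no promoter peak in any list, and all 8 genes lack a STAT3 peak in 3 of the 4 STAT3 lists.

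The start of Thbs1, at the left end of the gene on mm9 chr2:117937612-117952869 (plus strand), carried H3K4me3 in both genotypes, with a peak at chr2:117936369-117939054 in Rybp+/+ ESCs. Its fold enrichment was 23.0 in Rybp+/+ and 21.3 in Rybp-/- ESCs. H3K27ac upstream of the start was weak, 4.73 and 4.21, and no WDR5 peak was called. RING1B covered the same start at chr2:117936131-117939340 with DOX in Tet.Rybp.Stat3 ESCs, and its fold enrichment was 6.96 without and with DOX, and 5.49 with shEV and 5.48 with shStat3. STAT3 had no peak there without DOX, and with DOX a peak of 6.90 at chr2:117936930-117937976.

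Ctgf (chr10:24315248-24318489, plus strand) and Cyr61 (chr3:145309935-145312949, minus strand) carried both histone marks and WDR5. H3K4me3 was 32.5 and 33.7 at Ctgf and 42.7 and 54.2 at Cyr61 in Rybp+/+ and Rybp-/- ESCs. The H3K27ac peak over the start was 12.5 in Rybp+/+ and 7.88 in Rybp-/- ESCs at Ctgf, and 15.1 and 8.55 at Cyr61. An upstream peak at Ctgf was 13.1 in Rybp+/+ ESCs, and in Rybp-/- ESCs it was 11.1 and ended just outside the promoter window. RING1B was stronger at Cyr61, 10.6 without and 15.1 with DOX, than at Ctgf, 4.17 and 3.01. Lats2 (chr14:58260914-58377225, minus strand) had the strongest RING1B peaks of the 8 genes, 30.9 without and 25.8 with DOX and 31.5 with shEV, together with H3K4me3 of 67.9 and 57.7. Amotl2 (chr9:102619002-102635748, plus strand), the 1 gene that fell in Rybp-/- ESCs, had H3K27ac of 22.1 in Rybp+/+ and 35.3 in Rybp-/- ESCs. Ajuba (chr14:55186309-55196253, minus strand) had H3K27ac of 33.0 and 18.1 and RNA levels that overlapped between the genotypes. Fold enrichment in lists of different depth is not a measure of change.

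Axl (chr7:26542292-26573724, minus strand) carried H3K4me3 of 16.1 in both genotypes at its start, with no H3K27ac or WDR5 peak there. Strong peaks just beyond its far end, at chr7:26537054-26541721, cover starts of the neighbouring gene Hnrnpul1. Ankrd1 (chr19:36186455-36194334, minus strand), whose promoter is shown above, had no promoter peak in any of the 14 lists.

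Over the 8 genes, 7 had an H3K4me3 peak at a promoter in Rybp+/+ and 7 in Rybp-/- ESCs, where 67.8% and 67.9% of 22380 protein-coding genes had one. For H3K27ac the counts were 6 and 6 (51.6% and 54.8% of genes) and for WDR5 5 and 5 (46.8% and 49.2%). RING1B had a promoter peak at 6 genes without DOX (54.7%) and at 6 with DOX (41.9%), at 7 with shEV (45.9%), a weak peak at Axl with a -log10 q of 1.5 among them, and at 6 with shStat3 (41.6%). STAT3 had one at 7 genes with DOX, where 57.5% of all genes had one in a list of 30663 peaks, and at none without DOX, where 9.03% had one in a list of 2816 peaks. It had none of the 8 in Rybp+/+ ESCs (7.78% of genes) or Rybp-/- ESCs (6.56%). The STAT3 count of the 8 genes thus moved with the length of the lists.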

How the data were processed

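RNA-seq of 28 libraries in 7 tables and 14 ChIP-seq peak lists were used. The authors trimmed reads with Trim Galore, aligned them to mm9 with STAR and deposited unnormalized HTSeq counts per gene. Reads that the tables assign to no gene, 13.7% to 26.5% of all counts where a table lists them, were left out. The deposited peaks came from the authors' Bowtie2 and MACS2, which give a fold enrichment against input and a -log10 q value, at an FDR of 0.01 per the methods. The lists reach below that, with a lowest -log10 q of 1.30 to 1.38 in 10 lists and 1.01 to 1.04 in the 4 RING1B lists, and all deposited peaks were used. Each table was tested alone with the quasi-likelihood test of edgeR 4.0.16 (R 4.3.3; TMM, filterByExpr, two-sided, Benjamini-Hochberg over all genes tested), with a threshold of 0.05 on the adjusted p. Fold changes are treated minus control. In the shWdr5 table, the shEV libraries had 0.509 and 0.506 times their depth in the shRybp table, so both tables share these controls.

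The 8 genes and all gene lists were chosen with earlier results of these data known. From each list up to 4 genes with an adjusted p under 0.05 and a mean of at least 1 CPM were eligible to be named, by largest absolute log2 fold change, together with the targeted genes. Other genes named for their role (Yap1 and Gas6 in some comparisons, and markers at or near 0 counts) were chosen after their values were seen. Columns of the TF-AA, phase disruption and J1 tables are headed WT, NTC and DOX only and were matched to the labels through the treated group beside them, and 1 rTRS column has a heading that differs from the other 3. The interval of the Ankrd1 ratio and the floor cover counting error only, while the other intervals come from the edgeR fit and include the spread between libraries. A count of 0 allows up to 3 counts. Alternatives were DESeq2 1.42.0, upper-quartile factors, no filter on low counts, a replicate block, leaving out each library, a minimum log2 change of 1 in either direction, and other windows and q values for peaks.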

Additional observations from a re-analysis of the deposited data

Results flagged for a closer look

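Amotl2 moved in opposite directions with the knockout and with the knockdown of Rybp. Its log2 fold change was -0.19 in Rybp-/- against Rybp+/+ ESCs, where both Rybp-/- libraries lay below both Rybp+/+ libraries, and 1.49 in shRybp against shEV ESCs, where both shRybp libraries lay above both shEV libraries. The difference between the lines was not tested.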

How the results depend on the processing

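Of the log2 fold changes of the 8 genes in the 5 tested tables, those that were called, Ankrd1 in rTRS ESCs set aside, lost the call in 4 alternatives, which are given beside the results. Those not called kept direction and side in 120 of 136, passed the threshold in 5 and changed sign in 11, all with adjusted p values of 0.43 or more; the cause was not tested. Ctgf passed with the TF-AA mutation under the replicate block (-0.37, adjusted p = 0.027) and without the second WT ESC library (0.032), Lats2 with RYBP phase disruption under the block (-0.33, adjusted p = 0.045), and Ajuba in J1 ESCs without the first vehicle library (0.14, adjusted p = 0.037). Sign changes came from Lats2 with the TF-AA mutation without a filter on low counts (-0.0035) and from leaving out a library, which gave Ajuba in Rybp-/- ESCs -0.031 to 0.039, Lats2 -0.092 to 0.11, Axl -0.0093 to 0.20 and Ajuba -0.037 to 0.076 with the TF-AA mutation, and Thbs1 -0.73 to 0.82, Ctgf -0.10 to 0.44 and Axl -0.20 to 0.0037 in J1 ESCs. The fitted value of Ankrd1 in rTRS ESCs ranged from 5.75 to 10.4 when 1 library was left out, since it rests on 3 control counts. Among the 8 genes, 1 to 3 were called with the TF-AA mutation (1 without its second library) and 0 to 1 in J1 ESCs when 1 library was left out.

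Requiring a log2 change of at least 1 in either direction lowered the genes called to 1330 in Rybp-/- (1119 higher and 211 lower), 2088 with shRybp (1886 and 202), 2815 with shWdr5 (1651 and 1164), 1176 with the TF-AA mutation (925 of them higher), 986 with RYBP phase disruption (793 and 193), 135 in J1 (82 and 53) and 1953 in rTRS ESCs (1255 and 698). DESeq2 called 2903 with the TF-AA mutation, against 4412, and 2659 with RYBP phase disruption, against 4814. Leaving out 1 library gave 2724 to 4767 with the TF-AA mutation and 406 to 1566 in J1 ESCs, where 899 were called. Replicate numbers are shared across groups, but no label says that they mark a common culture, and the differences of same-numbered libraries correlated at only -0.02 to 0.07. With the replicate block the calls were 7724 instead of 7720 in Rybp-/-, 9110 instead of 8721 with shRybp, 9865 instead of 9547 with shWdr5, 5525 with the TF-AA mutation, 5172 with RYBP phase disruption, 1211 in J1 and 8559 instead of 7070 in rTRS ESCs, within 1.5 times in each. Promoter peaks of the 8 genes, 68 over the 14 lists, numbered 64 to 70 with other windows, overlaps and q values. Ankrd1 had 0 to 20 counts in each R1, J1 and rTRS NTC library, which limits what its values can show.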
